A study of Drosophila melanogaster with 48 samples.

Results

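The acute response to very mild head trauma (vmHT) was examined in the brains of virgin Drosophila melanogaster females, using the 6 day 4 libraries whose count columns carry a virgin name: 3 from D3Inj virgins and 3 from sham virgins, of 48 libraries in the series. Libraries were taken by the name in the header of the count column, with young read as D3Inj. All 23932 features of the tables entered, of which 17869 are genes and the others mostly transposon insertions. Digestive genes were set apart from the outset, because virgin sham libraries 2 and 3 are rich in them. The series covers males and virgin, wildtype-mated and SP0-mated females, each after D3Inj or sham treatment, on days 4 and 45.

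D3Inj virgins received repeated headfirst impacts on day 3, and their brains were dissected on day 4 (1 dpi). Sham virgins were handled in the injury vials on the same day without impacts and were dissected at the same age. Both groups were progeny of nSyb-GAL4 males and w1118 females, so the controls carry the neuronal driver as well, and virgins were collected within hours of eclosion and kept away from males. Each library pooled 40 flies, and the 3 libraries of a group are described as independent cohorts. Wildtype-mated females, SP0-mated females (whose mates lack sex peptide) and males of the same cross, on day 4, and virgins kept until day 45 serve for comparison.

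Dissected fly brains hold neurons, glia and the perineurial sheath with its basement membrane, a sheet of laminin, collagen IV, nidogen and perlecan. Fat body, hemocytes, trachea, retina and the anterior gut lie against the brain inside the head and neck and can be carried along in a dissection. After injury, fly glia are known to engulf debris through Draper, JNK signalling and matrix metalloproteases are induced in damaged tissue, Sarm drives the breakdown of cut axons, and the Toll and Imd pathways drive antimicrobial peptide genes. In bulk tissue, fewer cells of a type and less RNA per cell cannot be told apart.

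In 47 of the 48 tables the column header and the deposit's own record disagree on which sample the table holds. Summed levels of roX1 and roX2, the male dosage compensation RNAs, were at least 5550 CPM (counts scaled to a common library size) under male headers and at most 60.2 CPM under female headers, so 0 of 48 libraries went against the header's sex and 20 of 48 went against the record's. These RNAs do not tell D3Inj from sham. Total counts were 38419159, 43598069 and 44971804 in D3Inj virgins and 21495740, 29739271 and 46315783 in sham virgins, within a series range of 21495740 to 60637359. All CPM values other than these roX sums, which are scaled to total counts, use TMM library sizes. Neuronal markers were abundant in all 6 libraries (summed level 31330 to 32530 CPM in D3Inj virgins and 31820 to 32970 CPM in sham virgins), as was the glial list (6033 to 6409 CPM in D3Inj virgins and 6040 to 6149 CPM in sham virgins).

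Virgin sham libraries 2 and 3 stood apart from sham library 1 and were close to each other. Over the 500 most variable genes, the SD of their log2 ratio was 0.763, the lowest of 24 pairs within day 4 groups, with the next at 0.914. Sham library 1 against library 2 and against library 3 gave 2.48 and 2.47, the highest of the 24. These genes include digestive genes. Over the 500 most variable genes that are neither digestive nor follow the digestive level, the 2 pairs gave 1.69 and 1.63. There the highest was 1.71, for D3Inj virgin libraries 1 and 3, and sham libraries 2 and 3 were again lowest at 0.832. Libraries 2 and 3 differed by more than sampling noise (chi-square of 4.38 per gene, range over the 24 pairs 4.02 to 68.9). Such a difference cannot show that they come from separate cohorts, since library preparation also adds spread. They were counted as 2 libraries, as described, and edgeR with the 2 summed as 1 library called 4 features. Results that rest on sham libraries 2 and 3 are given with and without them.

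The digestive genes held all the differences that edgeR called between the groups, and these followed sham libraries 2 and 3. The 5 lists hold 104 genes, of which 53 passed the filter on low counts: serine proteases, other proteases, carbohydrases, lipases, and peritrophic matrix, mucin and chitin genes of the gut lining. Their summed level was 288.8, 292.2 and 317.4 CPM in D3Inj virgins, against 263.3, 7044 and 6937 CPM in sham virgins. Sham library 1 lay just below the D3Inj libraries and libraries 2 and 3 far above them. The mean log2 difference was -2.97 (exact two-sided permutation p = 0.4, where 3 against 3 cannot go below 0.1), and against sham library 1 alone it was 0.184. Of the 53 tested genes, 13 had a positive log2 fold change and 28 were lower with an unadjusted p under 0.05 (median -1.35), whereas without sham libraries 2 and 3 a positive one was found for 40 of 56 (median 0.479).

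**Figure D1:**
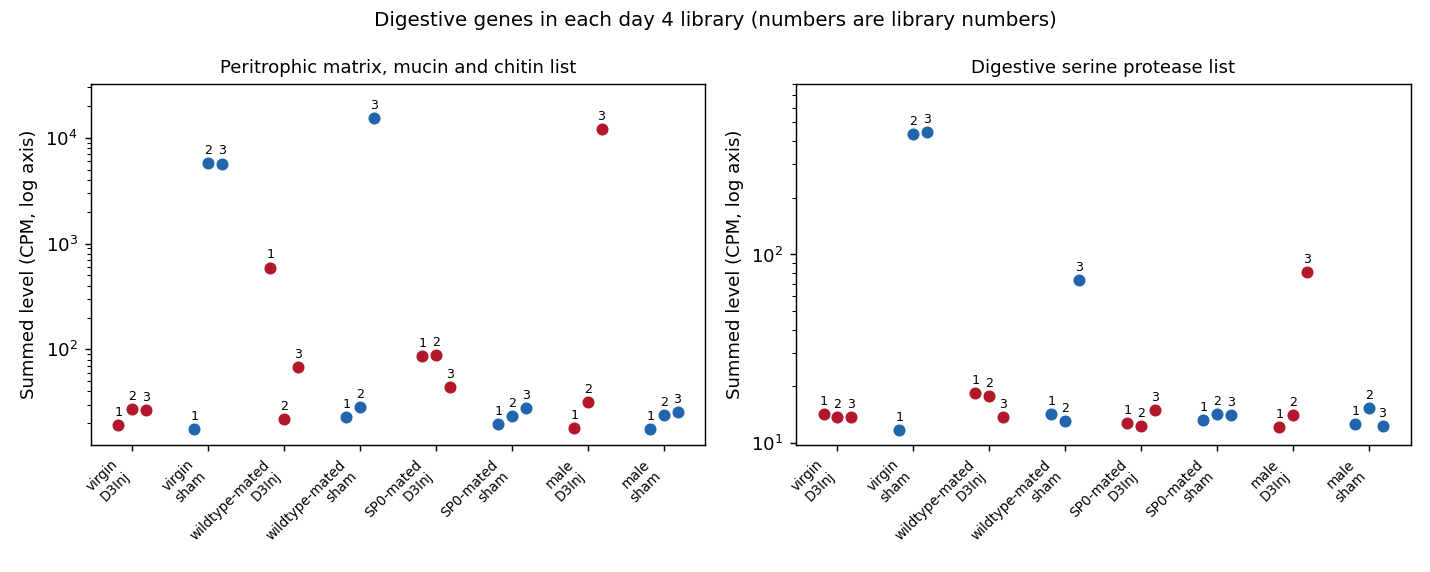
Summed levels (CPM, log axis) of the peritrophic matrix, mucin and chitin list (left) and the digestive serine protease list (right) in the 24 day 4 libraries. Points are single libraries labelled with their number, red for D3Inj and blue for sham; virgin sham 2 and 3 reach 5834 and 5712 CPM on the left, below wildtype-mated sham 3 (15430 CPM) and male D3Inj 3 (12130 CPM), and 432.4 and 446.2 CPM on the right, above both.

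Gut lining genes made up most of that sum in sham libraries 2 and 3, but not in the other 4 libraries, where carbohydrases did. The peritrophic, mucin and chitin list summed to 19.3, 27.2 and 26.9 CPM in D3Inj virgins, against 17.8, 5834 and 5712 CPM in sham virgins. Its most abundant member, CG34220, had 15, 22.6 and 21.4 CPM in D3Inj virgins, against 14.1, 4227 and 4129 CPM in sham virgins. Only sham libraries 2 and 3 were high, and the groups overlapped through sham library 1.

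The mucin gene Muc68D had 0, 0.456 and 0.791 CPM in D3Inj virgins, against 0.0467, 692.5 and 723.2 CPM in sham virgins. CG34324 had 1.11, 0.981 and 1.34 CPM in D3Inj virgins, against 0.981, 818.2 and 768.3 CPM in sham virgins. CG14125 had no count in any D3Inj virgin library or in sham library 1, and 79.0 and 74.3 CPM in sham libraries 2 and 3. With 3 counts over the group as the limit that a count of 0 allows (0.0236 CPM), its mean was at least 2160-fold lower in D3Inj virgins. None of these lining genes passed the edgeR test: log2 fold changes of -7.15 (SE 2.32) for CG34220, -10.1 (SE 3.20) for Muc68D and -8.85 (SE 2.88) for CG34324 had adjusted p = 0.752, 0.751 and 0.752.

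Secreted digestive enzymes were high in the same libraries. The serine protease list summed to 14.3, 13.9 and 13.8 CPM in D3Inj virgins, against 11.8, 432.4 and 446.2 CPM in sham virgins, and the lipase list to 3.54, 5.48 and 3.63 CPM, against 4.30, 50.5 and 48.6 CPM. Other proteases summed to 70.8, 68.8 and 72.9 CPM in D3Inj virgins, against 63.8, 326.0 and 329.3 CPM in sham virgins. The carbohydrases summed to 180.9, 176.9 and 200.2 CPM in D3Inj virgins, against 165.7, 400.7 and 400.4 CPM in sham virgins. The 4 lists share the order seen in the gut lining genes, with sham library 1 level with the D3Inj libraries or below them.

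Some enzyme genes did not follow this order. The maltase Mal-A5 had 103.6, 98.3 and 96.5 CPM in D3Inj virgins, against 98.9, 101.2 and 97.6 CPM in sham virgins, and the lysosomal protease CtsB 68.8, 64.6 and 70.1 CPM, against 60.1, 69.6 and 63.2 CPM. Both overlapped between the groups, with log2 fold changes of 0.0037 (SE 0.047) and 0.08 (SE 0.064). The amylase gene Amy-p did follow it, and had 0.983, 1.89 and 3.91 CPM in D3Inj virgins, against 0.420, 131.9 and 134.5 CPM in sham virgins, and its near-identical copy Amy-d 2.07, 5.80 and 8.75 CPM, against 1.59, 49.7 and 50.5 CPM. How reads of such copies were shared out is uncertain, and the same holds for the trypsin genes alphaTry and betaTry and for the Jonah proteases Jon99Cii and Jon99Ciii.

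Across all genes, 61 were at least 4-fold higher in each of sham libraries 2 and 3 than in each of the other 4 virgin libraries (with at least 1 CPM in both), and 0 were at least 4-fold lower. Of the 61, 27 are in the digestive lists and 25 are gut-linked, meaning that their log2 CPM followed the digestive mean with r of at least 0.8 over the 18 day 4 libraries that are not from virgins. The remaining 9 are neither. Among the gut-linked genes is GATAe, the endodermal transcription factor of the midgut, with 0, 0.137 and 0 CPM in D3Inj virgins, against 0, 1.86 and 1.60 CPM in sham virgins. Between sham libraries 2 and 3 the 61 genes had a median absolute log2 ratio of 0.101 and at most 0.817.

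Wildtype-mated sham library 3 and male D3Inj library 3 were also rich in digestive genes (15950 and 12740 CPM over the 5 lists, against 263.3 to 875.6 CPM in the 20 libraries outside these and virgin sham 2 and 3), but in other proportions. Of the 61 genes, 32 had a higher mean in that pair than in virgin sham 2 and 3, among them CG34324, CG34220, Muc68D and the chitinase gene Cht8. In the opposite direction, 23 were at least 4-fold higher in virgin sham 2 and 3. The trypsin genes alphaTry, betaTry, epsilonTry and kappaTry, the Jonah protease genes Jon65Aiv, Jon99Ci, Jon99Cii and Jon99Ciii, Mal-A1, CG12374, CG17633, Bace and the lipase genes CG6295 and CG17192 belong to these 23. betaTry had 82.7 and 87.1 CPM in virgin sham 2 and 3, against 2.48 CPM in wildtype-mated sham 3 and 0.578 CPM in male D3Inj 3. The part that adhering gut plays in these levels was not tested.

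The test of D3Inj against sham virgins called 8 of 14631 features (0.0547%) at an adjusted p under 0.05 (edgeR quasi-likelihood F test, 24 day 4 libraries fitted together, Benjamini-Hochberg adjustment over all features). All 8 were lower in D3Inj virgins, all 8 are members of the digestive lists, and all 8 are among the 23 genes that set virgin sham 2 and 3 apart from the other gut-rich pair. In the joint fit all groups share the estimate of spread of a gene, so the last point is not independent of the levels in other groups. CG14125, with 186.6 and 198.6 CPM in that other pair, had an SE of 4.70 and was not called, whereas betaTry had an SE of 1.37. The part that spread in other groups plays in which genes were called was not tested. Without sham libraries 2 and 3, edgeR called 0, with 675 features at an unadjusted p under 0.05. Leaving out any 1 of the 3 D3Inj virgin libraries or sham library 2 or 3 also left 0, whereas leaving out sham library 1 gave 28 calls. DESeq2 called 17 on the same 24 libraries, among them Tsf1 and LanB2, which are outside the digestive lists. On the 6 virgin libraries alone DESeq2 called 30 and edgeR 0. With the libraries grouped by the record in place of the header, edgeR called 0, with 494 at an unadjusted p under 0.05.

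**Figure D2:**
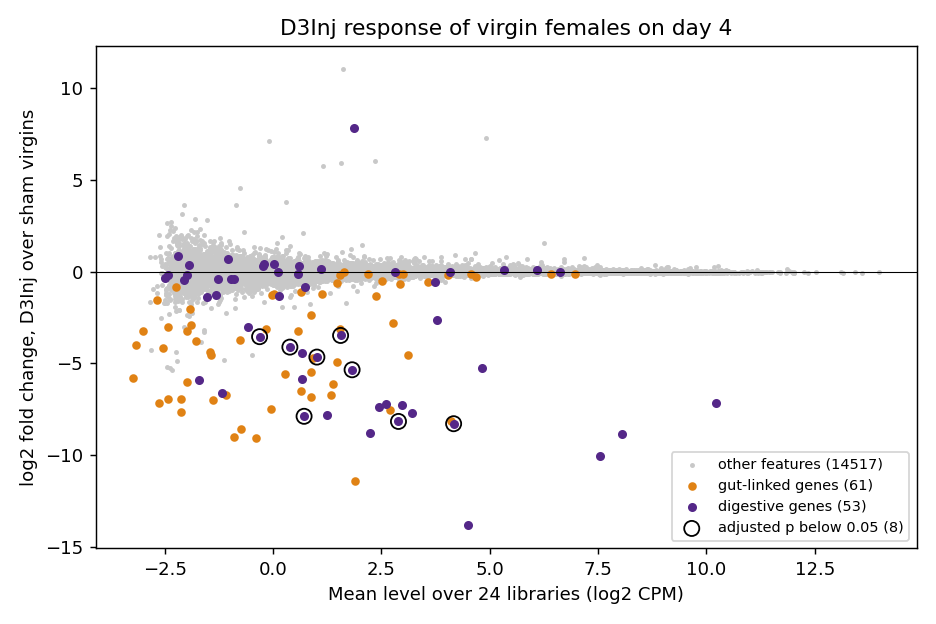
log2 fold change of D3Inj over sham virgins on day 4 (vertical) against the mean level over the 24 day 4 libraries (horizontal, log2 CPM) for 14631 features. Purple marks 53 digestive genes, orange 61 gut-linked genes, grey the other 14517 features, and black rings the 8 with an adjusted p below 0.05, all among the digestive genes and all below 0.

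Among the called proteases, the carboxypeptidase gene CG12374 (2R, 12762113 to 12763825) had 0, 1.10 and 0.176 CPM in D3Inj virgins, against 0, 202.1 and 208.6 CPM in sham virgins. Its log2 fold change came to -8.29 (SE 1.39, edgeR adjusted p = 0.0121). betaTry, a trypsin gene (2R, 11346325 to 11347395), had 0, 0.479 and 0.0879 CPM in D3Inj virgins, against 0, 82.7 and 87.1 CPM in sham virgins, a log2 fold change of -8.17 (SE 1.37, edgeR adjusted p = 0.0121). CG17633 (2L, 9769060 to 9770409) had 0, 0.0228 and 0.110 CPM in D3Inj virgins, against 0, 16.2 and 19.1 CPM in sham virgins, a log2 fold change of -7.89 (SE 1.33, edgeR adjusted p = 0.0222). For all 3 genes sham library 1 had no count, so the groups overlapped, and against it alone the D3Inj libraries were higher or equal. Coordinates here are those of the Ensembl annotation of dm6.

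Bace, an aspartic protease gene (2L, 8494893 to 8496307), had 0.905, 1.32 and 1.43 CPM in D3Inj virgins, against 1.45, 20.2 and 19.1 CPM in sham virgins. It fell by 3.48 on the log2 scale (SE 0.534, edgeR adjusted p = 0.00517), and against sham library 1 alone the log2 fold change was -0.24. CG5107 (3R, 25505191 to 25505931) had 0.362, 0.821 and 0.242 CPM in D3Inj virgins, against 0.981, 16.9 and 18.1 CPM in sham virgins. Its log2 fold change of -4.66 (SE 0.699, edgeR adjusted p = 0.00517) shrank to -1.04 without sham libraries 2 and 3. Both genes were lower in every D3Inj library than in every sham library, as were 4.46% of all features.

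Lipases and a lining gene complete the called set. CG6295 (3R, 27005899 to 27007055), of the pancreatic lipase family, had 0.259, 0.958 and 0.527 CPM in D3Inj virgins, against 0.420, 35.9 and 35.6 CPM in sham virgins, a log2 fold change of -5.35 (SE 0.812, edgeR adjusted p = 0.00517). Its neighbour CG17192 (3R, 27017180 to 27018287) had 0.466, 0.434 and 0.286 CPM in D3Inj virgins, against 0.654, 10.3 and 9.40 CPM in sham virgins, a log2 fold change of -4.12 (SE 0.618, edgeR adjusted p = 0.00517). CG6296, the lipase gene next to CG6295, was low throughout, at 0.931, 1.60 and 0.813 CPM in D3Inj virgins and 0.747, 1.05 and 0.756 CPM in sham virgins. CG3868 (3L, 14400769 to 14402725), of the peritrophic list, had 0.362, 0.274 and 0.154 CPM in D3Inj virgins, against 0.467, 4.16 and 4.45 CPM in sham virgins, a log2 fold change of -3.55 (SE 0.605, edgeR adjusted p = 0.0135). CG17192 and CG3868 did not overlap between the groups and CG6295 did.

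With the digestive level added to the fit as a covariate, none of the 8 was called, and 921 features (6.29%) had an unadjusted p under 0.05, the lowest adjusted p being 0.0988 for Amy-p. The covariate is the mean of the digestive lists, which hold these 8 genes, so their loss is no separate evidence. It is also nearly confounded with the sham group, since only sham libraries 2 and 3 are high among the 6.

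In all there were 61 gut-linked genes, 25 of which are among the genes marked above as high in sham libraries 2 and 3. None is a digestive list member. They were chosen for following the digestive level, in which sham libraries 2 and 3 are high, so their lower levels in D3Inj virgins are no separate evidence. All were lower by fold change (median log2 fold change -3.23, against -0.0023 over all features), and 42 had an unadjusted p under 0.05, against 2.19% of all features in that direction. None was called. When sham libraries 2 and 3 were left out, 34 of the 61 had a positive log2 fold change and the median was 0.119. Kaz-m1, a gut-linked gene of the Kazal protease inhibitor type, had 0.103, 0.0684 and 0.176 CPM in D3Inj virgins, against 0.140, 1.69 and 2.79 CPM in sham virgins.

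Outside the digestive and gut-linked sets no gene passed the edgeR threshold. Of 12010 such genes, 273 had an unadjusted p under 0.05 and a higher level in D3Inj virgins and 183 a lower one, where 2.11% of all features had such a p in the higher direction, and 4.31% in either. The lowest adjusted p was 0.122, for kar. The 12 higher and 12 lower genes with the smallest p among those whose groups did not overlap are described next, and 4.33% of all features were higher in every D3Inj library than in every sham library.

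**Figure D3:**
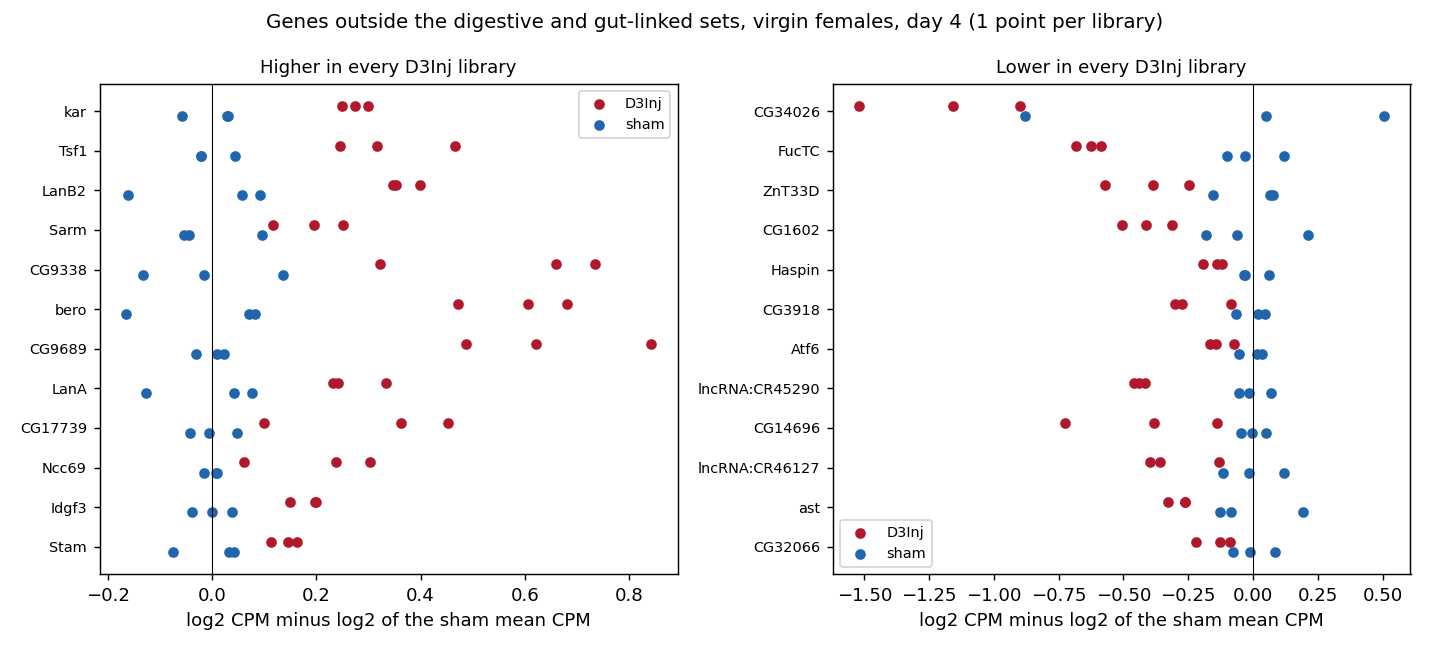
log2 CPM of each virgin library minus the log2 of the sham mean CPM (horizontal) for the 12 higher (left) and 12 lower (right) genes outside the digestive and gut-linked sets, 1 point per library, red for D3Inj and blue for sham. In every gene shown the 3 red points lie on one side of the 3 blue points, and the lower gene CG34026 spreads most, from 1.65 to 2.54 CPM in D3Inj and 2.57 to 6.72 CPM in sham virgins.

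Laminins and other basement membrane genes were higher in D3Inj virgins by small amounts. Of 14 tested members, 13 had a positive log2 fold change (49.1% of all features did), and the median was 0.19. At an unadjusted p under 0.05, 7 were higher (2.11% of all features were), and 8 were higher in every D3Inj library (4.33% of all features). None was called. The list summed to 3598, 3914 and 3757 CPM in D3Inj virgins, against 3304, 3540 and 3542 CPM in sham virgins (log2 difference 0.12, exact permutation p = 0.1, the smallest possible here), and against sham library 1 alone the difference was 0.18.

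LanB2, the laminin gamma chain, had 45.4, 47.1 and 45.6 CPM in D3Inj virgins, against 31.9, 38.1 and 37.2 CPM in sham virgins. Its log2 fold change came to 0.36 (SE 0.085, edgeR adjusted p = 0.226 by edgeR, and 0.0387 by DESeq2 on the same 24 libraries), with sham library 1 the lowest of the 6. LanA, a laminin alpha chain, had 126.6, 134.9 and 125.7 CPM in D3Inj virgins, against 98.1, 110.2 and 112.9 CPM in sham virgins (log2 fold change 0.27, SE 0.075, edgeR adjusted p = 0.588). The D3Inj libraries of both genes lay within a narrow band above all sham libraries.

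The laminin beta chain LanB1 had 57.2, 63.0 and 59.3 CPM in D3Inj virgins, against 46.6, 51.6 and 52.8 CPM in sham virgins, a log2 fold change of 0.25 (SE 0.094). wb, the second laminin alpha chain, had 11.5, 11.5 and 14.3 CPM in D3Inj virgins, against 9.99, 9.77 and 11.3 CPM in sham virgins, a log2 fold change of 0.26 (SE 0.11). All 4 laminin genes were therefore higher in every D3Inj library, as were 4.33% of all features, and their adjusted p ranged from 0.226 to 1. The collagen IV genes vkg and Col4a1 showed log2 fold changes of 0.14 (SE 0.057) and 0.18 (SE 0.088), of which vkg did not overlap (378, 428 and 404 CPM in D3Inj virgins, against 357, 376 and 367 CPM in sham virgins).

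Members with other roles in the matrix were less even. Tig, an integrin ligand made by hemocytes, had 17.9, 31.1 and 33.1 CPM in D3Inj virgins, against 15, 18.3 and 17.5 CPM in sham virgins (log2 fold change 0.69, SE 0.22, edgeR adjusted p = 0.751). D3Inj library 1 lay inside the sham range. SPARC, a collagen-binding protein, had 187.7, 193.9 and 202.9 CPM in D3Inj virgins, against 185.0, 154.0 and 161.4 CPM in sham virgins. Its log2 fold change of 0.23 (SE 0.072) was 0.08 without sham libraries 2 and 3. Perlecan (trol, 0.03), nidogen (Ndg, 0.16) and Mp (-0.02) overlapped between the groups.

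The integrin and adhesion list did not move with the basement membrane: 6 of 14 tested members had a positive log2 fold change and the median was -0.01. Its member with the smallest p was Vinc (vinculin), which had 35.3, 30.1 and 36.2 CPM in D3Inj virgins, against 29.9, 27.0 and 26.1 CPM in sham virgins (log2 fold change 0.29, SE 0.098, edgeR adjusted p = 0.81). The lowest D3Inj library and the highest sham library nearly met.

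Tsf1, the iron-binding transferrin of the hemolymph, had 471.3, 448.2 and 522.8 CPM in D3Inj virgins, against 389.9, 372.5 and 372.6 CPM in sham virgins. Its log2 fold change came to 0.35 (SE 0.078, edgeR adjusted p = 0.187, DESeq2 adjusted p = 0.0116 on the same 24 libraries), and 0.30 without sham libraries 2 and 3. All 12 tested genes of the iron list had a positive log2 fold change, but the median was 0.08 and Tsf1 was the only member with an unadjusted p under 0.05. The ferritin chains Fer1HCH (0.01, SE 0.057) and Fer2LCH (0.08, SE 0.078) overlapped between the groups.

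A pair of neighbouring Ly6 genes on 2L was higher in D3Inj virgins. bero had 13.8, 15.2 and 16.0 CPM in D3Inj virgins, against 8.87, 10.5 and 10.5 CPM in sham virgins, and CG9338 8.85, 11.8 and 11.2 CPM, against 7.00, 6.46 and 7.78 CPM. The log2 fold changes, 0.58 (SE 0.16) and 0.58 (SE 0.15), had edgeR adjusted p of 0.588 and 0.463. Ly6 proteins are small and often anchored to the membrane by a lipid. Of 15 tested Ly6 genes 9 had a positive log2 fold change, 3 were higher at an unadjusted p under 0.05 (2.11% of all features were) and the median was 0.10.

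kar, named for an eye colour mutation and encoding a protein of the monocarboxylate transporter family, had 34.0, 33.5 and 34.7 CPM in D3Inj virgins, against 28.7, 27.0 and 28.8 CPM in sham virgins. The log2 fold change was 0.27 (SE 0.057, edgeR adjusted p = 0.122, DESeq2 adjusted p = 0.0211). Within each group its libraries spread by less than the gap between the groups. The log2 fold change was 0.25 without sham libraries 2 and 3.

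Sarm, the NAD-cleaving enzyme that drives axon breakdown, had 363.4, 383.6 and 398.8 CPM in D3Inj virgins, against 357.8, 324.6 and 322.6 CPM in sham virgins. The groups did not overlap, though D3Inj library 1 and sham library 1 were close. The log2 fold change was 0.19 (SE 0.045, edgeR adjusted p = 0.242). Without sham libraries 2 and 3 it was 0.10, and without sham library 1 it was 0.24 with an adjusted p of 0.0254. Of 11 tested genes of the axon degeneration list, 6 had a positive log2 fold change and the median was 0.02. The NAD-synthesising enzyme Nmnat, which opposes Sarm, had 24.4, 26.4 and 25.6 CPM in D3Inj virgins and 26.9, 25.5 and 26.4 CPM in sham virgins.

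Among the other higher genes, Ncc69, a sodium-potassium-chloride cotransporter, had 113.7, 100.5 and 118.9 CPM in D3Inj virgins, against 97.0, 95.3 and 96.9 CPM in sham virgins (log2 fold change 0.20, SE 0.058). Idgf3, a secreted chitinase-like growth factor, had 65.9, 68.1 and 68.2 CPM in D3Inj virgins, against 61.0, 57.8 and 59.4 CPM in sham virgins (0.18, SE 0.053). Stam, an adaptor of endosomal sorting, had 74.5, 72.8 and 75.4 CPM in D3Inj virgins, against 68.9, 63.9 and 69.4 CPM in sham virgins (0.14, SE 0.040). In all 3 every sham library lay below every D3Inj library, and the edgeR adjusted p were 0.6, 0.612 and 0.612.

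CG9689 had 10.1, 9.24 and 11.8 CPM in D3Inj virgins, against 6.44, 6.63 and 6.70 CPM in sham virgins (log2 fold change 0.66, SE 0.18, edgeR adjusted p = 0.588), and CG17739 59.2, 49.3 and 63.0 CPM, against 47.6, 45.8 and 44.7 CPM (0.31, SE 0.089). Both kept a positive log2 fold change without sham libraries 2 and 3, at 0.69 and 0.27. The chitin-binding cuticle gene Cpr47Ef was low, with 1.32, 0.799 and 0.615 CPM in D3Inj virgins, against 0.280, 0.473 and 0.410 CPM in sham virgins. Its groups did not overlap and its log2 fold change was 1.19 (SE 0.35, edgeR adjusted p = 0.645).

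Lower genes outside the gut sets had small differences as well. CG34026 had 2.54, 2.12 and 1.65 CPM in D3Inj virgins, against 2.57, 4.90 and 6.72 CPM in sham virgins. The highest D3Inj library nearly reached sham library 1, and the log2 fold change of -1.19 (SE 0.25, edgeR adjusted p = 0.134) was -0.29 without sham libraries 2 and 3. FucTC, a fucosyltransferase gene, had 3.47, 3.33 and 3.56 CPM in D3Inj virgins, against 5.23, 5.81 and 4.99 CPM in sham virgins. Here the 3 sham libraries were alike, and the log2 fold change was -0.63 (SE 0.15, edgeR adjusted p = 0.233) with sham libraries 2 and 3 and -0.60 without them.

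ZnT33D, a zinc transporter gene, had 14.0, 12.8 and 11.2 CPM in D3Inj virgins, against 17.6, 17.4 and 14.95 CPM in sham virgins (log2 fold change -0.39, SE 0.11). Atf6, a sensor of endoplasmic reticulum stress, had 106.8, 100.1 and 101.8 CPM in D3Inj virgins, against 115.2, 108.4 and 113.7 CPM in sham virgins (-0.13, SE 0.043). Haspin, a histone H3 kinase gene, had 74.0, 73.0 and 70.4 CPM in D3Inj virgins, against 83.8, 78.8 and 78.5 CPM in sham virgins (-0.15, SE 0.048). These 3 were lower in every D3Inj library, with adjusted p of 0.634, 0.806 and 0.751. CG1602, CG3918, lncRNA:CR45290, CG14696, lncRNA:CR46127, ast and CG32066 had log2 fold changes of -0.41, -0.21, -0.44, -0.40, -0.30, -0.28 and -0.14, all without overlap between the groups.

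More photoreceptor genes had positive than negative log2 fold changes, and the medians were smaller without sham libraries 2 and 3. All 8 opsin and arrestin genes had a positive log2 fold change (median 0.84), and their summed level was 370.1, 252.9 and 560.7 CPM in D3Inj virgins, against 378.1, 149.1 and 151.9 CPM in sham virgins. Sham library 1 lay between D3Inj libraries 1 and 3. The log2 difference was 0.87 (exact permutation p = 0.3) with all sham libraries and -0.01 against sham library 1 alone. Gene by gene, 5 of 8 were positive without sham libraries 2 and 3, with a median of 0.34. Over the whole list, 22 of 28 tested genes had a positive log2 fold change with a median of 0.61, and 14 of 28 without sham libraries 2 and 3.

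The rhodopsin ninaE varied the most, with 77.3, 19.4 and 200.9 CPM in D3Inj virgins, against 58.6, 21.4 and 21.7 CPM in sham virgins. Rh5 was the only opsin without overlap, with 4.45, 2.94 and 4.90 CPM in D3Inj virgins, against 2.34, 2.30 and 2.46 CPM in sham virgins (log2 fold change 0.79, SE 0.34, edgeR adjusted p = 1). The other photoreceptor genes had a positive log2 fold change in 14 of 20 tested (median 0.33), and in 9 of 20 without sham libraries 2 and 3. Among them norpA, the phospholipase C of phototransduction, had 659, 667 and 648 CPM in D3Inj virgins and 670, 673 and 655 CPM in sham virgins. The part that attached retina plays in these levels was not tested.

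**Figure D4:**
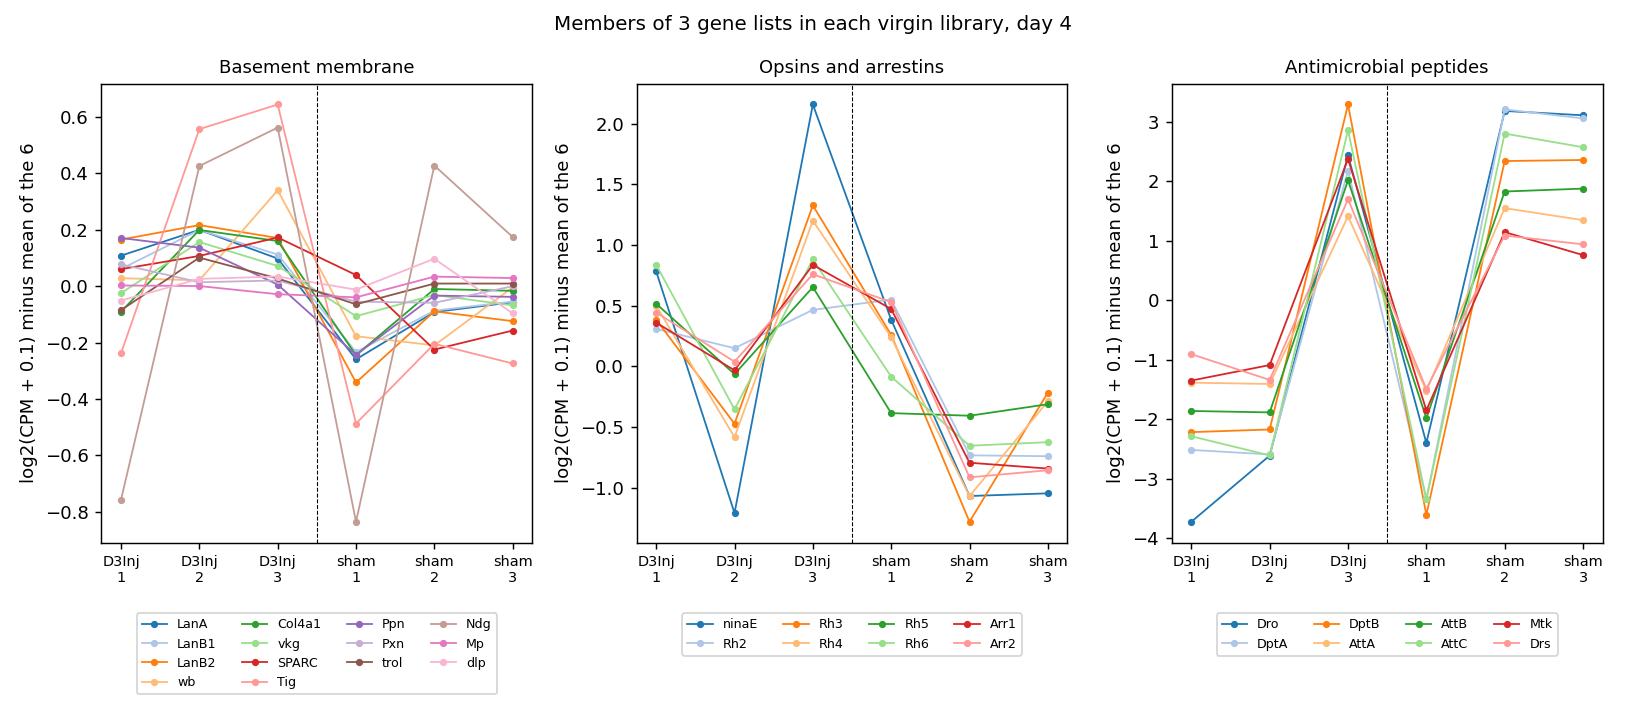
log2(CPM + 0.1) of each virgin library minus the mean of the 6 (vertical) for the basement membrane list, the opsins and arrestins and 8 antimicrobial peptide genes, 1 line per gene, D3Inj libraries left of the dashed line and sham libraries right of it. Of the basement membrane genes, 8 of 14 sit higher in all D3Inj than in all sham libraries, as do 4.33% of all features. The opsins peak in D3Inj 3, and the antimicrobial peptides are high together in D3Inj 3, sham 2 and sham 3.

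Antimicrobial peptide genes were high in 3 of the 6 libraries, from both groups. The list summed to 10.3, 8.69 and 123.5 CPM in D3Inj virgins, against 7.14, 109.1 and 99.6 CPM in sham virgins. DptB had 0.284, 0.297 and 17.4 CPM in D3Inj virgins, against 0.0467, 8.96 and 9.07 CPM in sham virgins, and Drs 4.32, 3.17 and 26.8 CPM, against 2.85, 17.5 and 15.8 CPM. D3Inj library 3 and sham libraries 2 and 3 were high together and the other 3 low together, so the groups overlapped in every tested member.

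The sign of the antimicrobial difference depended on the libraries. Of 15 tested genes 2 had a positive log2 fold change with all libraries (median -0.79), and without sham libraries 2 and 3 it was 14 of 16 (median 2.94). On day 4, 5 of the 24 libraries had a summed level above 50 CPM, namely these 3 and SP0-mated sham 2 and 3 (81.0 and 83.7 CPM), and the other 19 had at most 10.3 CPM. The Toll-dependent bomanin genes and related effectors summed to 82.2, 118.3 and 391.3 CPM in D3Inj virgins, against 62.2, 200.7 and 188.9 CPM in sham virgins. They showed 14 of 16 positive log2 fold changes with a median of 0.45, and D3Inj library 3 was the highest of the 24.

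Upstream immune genes were steadier. PGRP-SA, a receptor of bacterial peptidoglycan that acts in the Toll pathway, had 0.931, 1.94 and 1.32 CPM in D3Inj virgins, against 0.560, 0.845 and 0.432 CPM in sham virgins. Its groups did not overlap, and the log2 fold change was 1.21 (SE 0.39, edgeR adjusted p = 0.751). The serpin gene nec, an inhibitor of Toll activation, had 63.8, 62.1 and 79.0 CPM in D3Inj virgins, against 53.7, 59.7 and 58.4 CPM in sham virgins (log2 fold change 0.25, SE 0.086). The Imd factor Rel had 35.9, 38.6 and 43.5 CPM in D3Inj virgins and 36.8, 36.6 and 39.5 CPM in sham virgins, and the receptor Tl 245, 242 and 246 CPM and 245, 243 and 245 CPM. Over the Toll and Imd core list, 20 of 29 log2 fold changes were positive with a median of 0.07.

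PGRP-SC2, an amidase that breaks down peptidoglycan in the gut, had 1.09, 1.10 and 2.18 CPM in D3Inj virgins, against 1.82, 6.52 and 6.35 CPM in sham virgins. Of the 6 libraries, sham 2 and 3 were the highest, and the groups overlapped through sham library 1. The log2 fold change was -1.76 (SE 0.39, edgeR adjusted p = 0.171), and -0.32 without sham libraries 2 and 3.

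Genes of the injury and stress lists were close to level at 1 dpi. In the JNK and injury list 10 of 17 tested genes had a positive log2 fold change (median 0.05), and Mmp1, the matrix metalloprotease induced in damaged tissue, had 14.7, 18.0 and 21.9 CPM in D3Inj virgins, against 13.8, 14.0 and 12.6 CPM in sham virgins (log2 fold change 0.44, SE 0.16, edgeR adjusted p = 1). D3Inj library 1 lay just above the sham range. The JNK target puc had 80.4, 79.6 and 75.8 CPM in D3Inj virgins and 87.8, 80.6 and 73.9 CPM in sham virgins.

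The engulfment receptor drpr had 181, 191 and 188 CPM in D3Inj virgins and 182, 194 and 193 CPM in sham virgins, and 10 of 15 genes of its list had a positive log2 fold change with a median of 0.01. Heat shock genes were positive in 10 of 15 (median 0.03), with Hsp83 at 445, 697 and 835 CPM in D3Inj virgins and 421, 596 and 616 CPM in sham virgins. This count includes 5 tested copies of Hsp70, which are near identical, so how reads were shared among them is uncertain. The Turandot and JAK-STAT list was positive in 7 of 12 (median 0.02) and the oxidative stress and detoxification list in 19 of 26 (median 0.04). GstE11, a glutathione transferase gene, had 0.957, 1.03 and 1.49 CPM in D3Inj virgins, against 0.654, 0.744 and 0.713 CPM in sham virgins (log2 fold change 0.72, SE 0.25).

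The fat body list summed to 5334, 6810 and 6667 CPM in D3Inj virgins, against 4205, 6197 and 6133 CPM in sham virgins, and the low values in both groups were those of library 1. The yolk protein gene Yp1 had 518, 649 and 593 CPM in D3Inj virgins and 322, 590 and 573 CPM in sham virgins. Hemocyte genes summed to 1204, 975.6 and 998.4 CPM in D3Inj virgins, against 977.6, 982.4 and 985.9 CPM in sham virgins, and 12 of 15 log2 fold changes were positive (median 0.08). The part of fat body and hemocytes in the levels of Tsf1 and of basement membrane genes, which these cells are known to make, was not tested.

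Brain cell markers moved little. Of 17 neuronal markers 16 had a negative log2 fold change, with a median of -0.03 and a range of -0.09 to 0.01, and without sham libraries 2 and 3 the median was 0.0017. Of 18 glial markers 10 were positive (median 0.02), and 3 had an unadjusted p under 0.05, all higher, against 2.11% of all features in that direction. The glial transcription factor repo had 153, 136 and 147 CPM in D3Inj virgins, against 142, 122 and 122 CPM in sham virgins (log2 fold change 0.17, SE 0.062), and 0.03 without sham libraries 2 and 3. moody, a receptor of the blood-brain barrier glia, had 67.6, 73.5 and 75.3 CPM in D3Inj virgins, against 63.7, 64.9 and 63.6 CPM in sham virgins (0.17, SE 0.068), and 0.18 without them. Mitochondrially encoded genes were negative in 14 of 15 (median -0.06), and 22 of 36 neuropeptide genes were negative (median -0.03).

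The remaining lists are given by their counts and medians. Positive log2 fold changes were found for 18 of 20 lipid synthesis genes (median 0.05), 15 of 19 purine and one-carbon genes (0.10), 12 of 16 insulin pathway genes (0.02), 7 of 12 circadian genes (0.01), 5 of 9 activity-regulated genes (0.01), 11 of 17 muscle genes (0.03), 11 of 17 tracheal and cuticle genes (0.12) and 6 of 8 genes of gut uptake and immunity (0.26). Without sham libraries 2 and 3 the medians were 0.172, 0.302, 0.0655, -0.0426, -0.0571, 0.585, 0.503 and -0.0312, in that order. Transposon insertions and other non-gene features leaned lower, with 1039 of 2507 positive, 35 higher and 68 lower at an unadjusted p under 0.05 and a median of -0.05. No member of these groups was called.

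The response was set beside that of the other flies on day 4, where each group has its own sham libraries. No feature was called by edgeR in wildtype-mated females (0 of 14631, 0.0%, with 5.35% at an unadjusted p under 0.05). SP0-mated females had 1 call (0.00683%, with 4.19%), CG43693 at -0.27 (SE 0.043, edgeR adjusted p = 0.0389, against 0.04 with SE 0.043 in virgins). In males there was also 1 call (0.00683%, with 2.97%), Cpr47Ef at 2.28 (SE 0.35, edgeR adjusted p = 0.0196). The responses of these other flies were fitted by edgeR only. Wildtype-mated females and males each include a gut-rich library (sham 3 and D3Inj 3), which widens the spread of digestive genes. The paper, which used DESeq2, reports more changed transcripts in wildtype-mated females and in males than in virgins. Virgins on day 45 had 0 calls of 15286 features by edgeR, with 288 (1.88%) at an unadjusted p under 0.05.

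**Figure D5:**
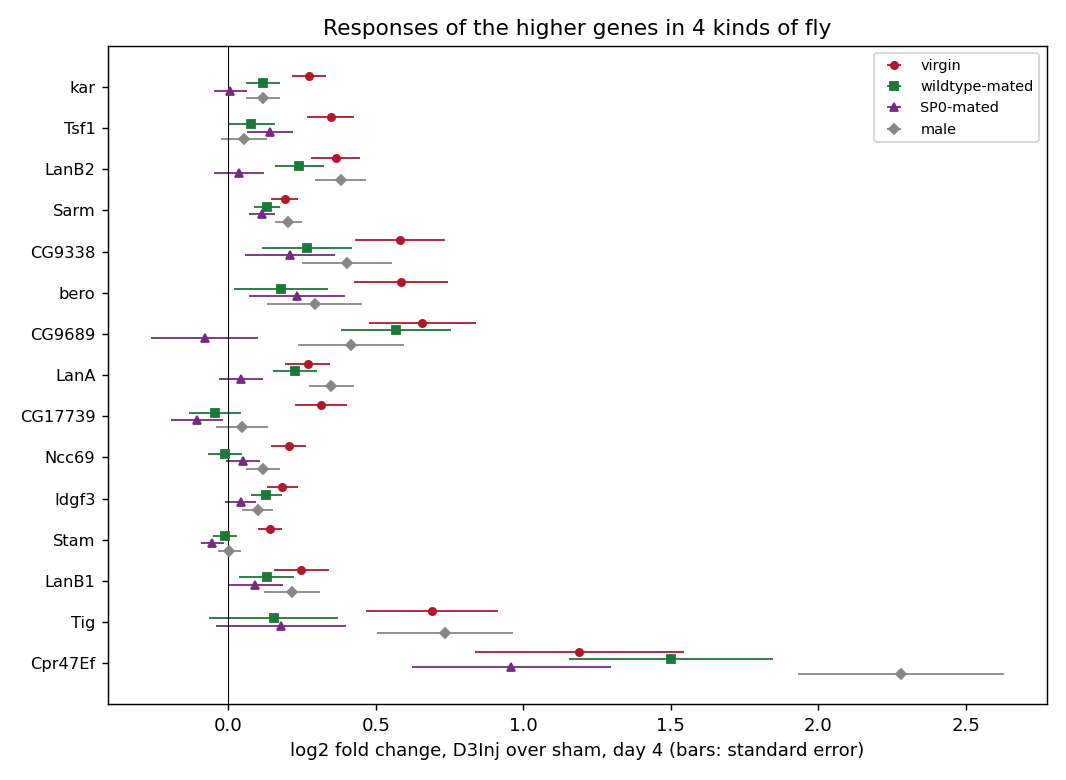
log2 fold change of D3Inj over sham on day 4 (horizontal, bars are standard errors) in virgins (red circles), wildtype-mated females (green squares), SP0-mated females (purple triangles) and males (grey diamonds) for the 12 higher genes and for LanB1, Tig and Cpr47Ef. LanA and LanB2 lie at 0.27 and 0.36 in virgins, 0.23 and 0.24 in wildtype-mated females, 0.04 and 0.04 in SP0-mated females and 0.35 and 0.38 in males.

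The 12 higher genes were chosen on the virgin contrast, so only their values in other flies are informative. Their log2 fold changes were positive for 9 of 12 in wildtype-mated females (median 0.13), 9 of 12 in SP0-mated females (median 0.04), 12 of 12 in males (median 0.16) and 8 of 12 in day 45 virgins (median 0.05), against medians of all features between -0.0023 and 0. Males showed LanB2 at 0.38 (SE 0.086), LanA at 0.35 (SE 0.076) and Sarm at 0.20 (SE 0.045), all 3 with an edgeR adjusted p of 0.375. The 12 lower genes were negative for 8, 6, 7 and 9 of 12 in these 4 comparisons, with medians of -0.04, 0.02, -0.02 and -0.05.

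Tests of the difference between responses called no feature by edgeR. Between virgin and wildtype-mated responses 0 of 14631 features (0.0%) passed, with 629 (4.3%) at an unadjusted p under 0.05 and a lowest adjusted p of 0.163 for CG17192. Between virgin and SP0-mated responses it was 0 (0.0%), with 671 (4.59%) and a lowest adjusted p of 0.444, again for CG17192. DESeq2 called 3 and 8 features in these comparisons. The Tsf1 response was 0.27 higher in virgins than in wildtype-mated females (SE 0.11, edgeR adjusted p = 0.998) and the LanB2 response 0.33 higher than in SP0-mated females (SE 0.12, edgeR adjusted p = 1), neither of which passed. Cpr47Ef had log2 fold changes of 1.19 in virgins, 1.5 in wildtype-mated females, 0.96 in SP0-mated females and 2.28 in males.

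The study lists 16 genes for virgin females on day 4, and it chose them on these same libraries, so their direction here is not independent evidence. In the edgeR fit 8 of the 16 had a positive and 8 a negative log2 fold change, all with an unadjusted p under 0.05, and 1 was called, CG3868. The positive ones were Tsf1, LanA, LanB2, bero, CG9338, CG9689, Tig and Rh5, and the negative ones were CG3868, Muc68D, CG34324, CG34220, CG14125, Mur29B, Kaz-m1 and PGRP-SC2. Leaving out sham libraries 2 and 3 keeps only sham library 1, so only log2 fold changes are given for that fit. The 8 positive genes stayed positive, from 0.303 for Tsf1 to 0.867 for Tig. The 8 negative genes ranged from -0.879 for Mur29B to 3.13 for Muc68D, and CG14125 had no count in any remaining virgin library. These 8 are highest in the libraries left out, so their weaker, absent or reversed differences are no separate evidence.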

How the data were processed

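RNA of dissected brains was sequenced from rRNA-depleted, stranded libraries. The deposited count tables hold raw read counts per feature, made by the authors with FastQC, RNA STAR on dm6 with the Ensembl annotation, and featureCounts; for versions, annotation release and strand setting the sources used here give nothing. Libraries were grouped by column header, because header and record disagree, and the record's grouping was run as an alternative. Members, gene lists and tests were chosen with earlier results of these data known.

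Counts of the 24 day 4 libraries were fitted together in edgeR 4.0.16 (R 4.3.3, limma 3.58.1) with 1 coefficient for each of 8 groups, TMM scaling, filterByExpr, quasi-likelihood F tests and Benjamini-Hochberg adjustment over 14631 features at 0.05. The common biological coefficient of variation was 0.136, with 16 residual degrees of freedom. The test was checked on simulated data. Alternatives used DESeq2 1.42.0, other library sets, scalings and filters, a gut covariate, a replicate block and each library left out. Leaving out sham libraries 2 and 3 and summing them were added after seeing the data. Summed list levels were compared by exact permutation in Python 3.11.15.

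Named genes were the called genes, the 12 higher and 12 lower genes outside the gut sets with the smallest p among those of at least 1 log2 CPM whose groups did not overlap, the 3 most abundant members of each digestive list, the genes the study lists for virgins, and list members with an unadjusted p under 0.01. GATAe, Cht8, CG6296 and list members given as level, such as Nmnat, drpr and norpA, were named for their role after their values were seen. Gene symbols and coordinates came from an Ensembl annotation matched by FBgn identifier, with 642 of 648 list symbols matched.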

Additional observations from a re-analysis of the deposited data

How the results depend on the processing

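The virgin response of 8 called features became 0 with edgeR on the 6 virgin libraries, with the gut level as a covariate, with groups taken from the record and without sham libraries 2 and 3. It became 14 on all 48 libraries, 14 with no filter on low counts, 3 with a filter of 1 CPM, 4 with sham libraries 2 and 3 summed, and 17 and 30 by DESeq2 on 24 and on 6 libraries. Leaving out 1 virgin library gave 0 to 28, and 28 came only without sham library 1. RLE scaling and TMM without digestive genes gave 8 each. The difference from the wildtype-mated response, 0 features, became 7 on 48 libraries, 3 by DESeq2, 4 with no filter and 2 with the covariate, and 0 to 11 with 1 library left out. The difference from the SP0-mated response, also 0, became 4, 8 and 1 on 48 libraries, by DESeq2 and with the covariate, and 0 to 5 with 1 library left out. Deviations from the group means had r of 0.21, 0.022 and 0.119 for libraries of equal number, and -0.187 to 0.153 for unequal numbers. These few values overlap and do not decide whether replicate numbers pair the libraries. A replicate block gave 11 calls.

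Without sham libraries 2 and 3, log2 differences of summed levels were 0.184 for digestive genes, 0.44 for peritrophic genes, -0.0142 for opsins and arrestins, 1.64 for antimicrobial peptides, 0.184 for basement membrane, 1.33 for bomanins, 0.568 for fat body and -0.000318 for neurons. With 1 library left out they ranged from -4.55 to -2.18, -7.9 to -3.72, 0.581 to 1.31, -2.22 to -0.255, 0.0843 to 0.148, -0.433 to 0.693, 0.0159 to 0.312 and -0.0506 to -0.0228, in that order, and for glia, hemocytes and muscle from 0.008 to 0.0515, 0.00725 to 0.159 and -0.102 to 0.107.

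Of the 24 named genes outside the gut sets, 8 had an adjusted p under 0.05 in some alternative: CG34026, Sarm, Tsf1, LanB2, kar, bero, LanA and CG9689. This was 14 of 456 gene and alternative pairs, and the sign turned in 9 of the 456. Over all named genes, signs turned in 50 of 1016 gene and alternative pairs. With groups from the record the log2 fold changes were 2.52 for CG12374, 3.73 for betaTry, 3.78 for Amy-p, 0.917 for Amy-d, -0.314 for Mal-A5, -0.00154 for CtsB, 6.16 for alphaTry, 6.29 for Jon65Aiii, 8.93 for Muc68D, 9.17 for CG34324, 6.71 for CG34220, 8.76 for CG14125, 2.74 for Mur29B, 4.82 for Kaz-m1, -0.812 for Tsf1, -0.114 for Sarm, -0.123 for CG9689, -0.0491 for CG17739, -0.0792 for Ncc69, -0.254 for Idgf3, 0.521 for CG34026, 0.165 for CG1602, 0.0878 for lncRNA:CR45290, -0.0467 for PGRP-SA and -0.81 for GstE11. With the gut covariate they were 0.397 for CG17633, 2.87 for Amy-p, 1.05 for Amy-d, -0.0311 for Mal-A5, 4.18 for alphaTry, 2.41 for Jon65Aiii, 7.5 for Muc68D, 6.71 for CG34324, 2.58 for CG34220, 0.192 for Mur29B and 3.18 for Kaz-m1. Without sham libraries 2 and 3 they were 0.474 for CG6295, 6.93 for CG12374, 5.78 for betaTry, 3.8 for CG17633, 2.44 for Amy-p, 1.81 for Amy-d, 6.45 for alphaTry, 0.533 for Jon65Aiii, 3.13 for Muc68D, 0.227 for CG34324 and 0.483 for CG34220. Sham library 1 had no count of CG12374, betaTry, CG17633 or alphaTry, so their values here are no bound. Mal-A5 was -0.0252, -0.00176 and -0.00645 without D3Inj library 1, sham library 1 and sham library 3, and ranged from -0.0252 to 0.0244 over all libraries left out. Other than the sets that each alternative leaves out, the cause was not tested.

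Limits: each group has 3 libraries, sham library 1 is the shallowest, and the header that assigns every library differs from the record.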

Other observations

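A set of secreted or little described genes was high in some D3Inj libraries. It was chosen after the values were seen, as the 9 genes with a log2 fold change of at least 3 in virgins and at least 3 CPM in a virgin library: whe, LysP, CG16826, CG34212, lcs, CG45080, CG33109, CG30371 and CG43679. None was called and none is gut-linked. Their summed level was 0.543, 30.5 and 274 CPM in D3Inj virgins, against 0.887, 0.608 and 1.21 CPM in sham virgins. CG16826 had 0.0776, 19.1 and 169 CPM in D3Inj virgins, against 0.0467, 0.406 and 0.562 CPM in sham virgins (edgeR adjusted p = 0.719). LysP, a lysozyme gene and the only member of the digestive lists among them, had 0.0517, 0.183 and 23.1 CPM in D3Inj virgins, against 0.0467, 0 and 0.0432 CPM in sham virgins (edgeR adjusted p = 0.729). The groups overlapped in CG16826. LysP did not overlap, though D3Inj library 1 lay just above the sham libraries.

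The same 9 genes summed to 587 CPM in wildtype-mated D3Inj library 3, 153 CPM in wildtype-mated D3Inj library 1 and 80.8 CPM in male D3Inj library 2. No other day 4 library outside the virgins reached 10 CPM. The highest of these were wildtype-mated sham library 3 (5.79 CPM) and SP0-mated D3Inj library 1 (5.48 CPM). The genes were chosen on the virgin libraries, so the virgin levels, low in sham libraries 2 and 3 as well, are no evidence. The difference between D3Inj and sham libraries was not tested, because the genes were chosen for it.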
